A study of Mus musculus with 7 samples.

Results

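The genes described here encode the enzymes and transporters that burn fatty acids and ketone bodies in mitochondria and peroxisomes. They were chosen by name, with earlier results of these data known, as 36 genes out of 21487 rows of a table of gene counts. They run from carnitine import to ketone breakdown. All 36 were found and all passed the filter on low counts. The RNA came from gastrocnemius, a mostly fast calf muscle, of mice with immobilization-induced atrophy. The 3 control libraries came from floxed mice, which the labels also call WT, and the 4 knockout libraries from mice lacking DJ-1 (gene Park7) in skeletal muscle. Both groups were immobilized, so the effect of immobilization itself is outside the comparison. The driver of the deletion, the exons removed and the age of the mice are not stated in the sources used here. Whether the libraries came from separate animals is not said either, and p-values then measure only the spread between libraries, which may be technical.

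To be burned, a long-chain fatty acid is first linked to coenzyme A and then handed to carnitine, which carries it across the inner mitochondrial membrane. Inside, repeated turns of a cycle of dehydrogenation, hydration, dehydrogenation and thiolysis shorten the chain and release acetyl-CoA. The first dehydrogenation of each turn delivers its electrons through the electron transfer flavoprotein to the respiratory chain. Peroxisomes run a similar cycle on very long and branched chains. Ketone bodies made in liver from the same acetyl-CoA are turned back into it in muscle. Slow, oxidative fibres depend on these routes more than the fastest fibres do.

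Library totals lay between 24458339 and 26389008 counts after rounding. Park7 checks the labels: it read 229 to 266 counts-per-million (CPM, scaled by TMM library factors) in the controls and 34.7 to 41.5 CPM in the knockouts, without overlap. The defining muscle genes Acta1, Ckm and Ttn were abundant in every library, as in skeletal muscle. Myoglobin (Mb), the oxygen store of oxidative fibres, read 3335 to 3747 CPM in the controls and 253 to 1002 CPM in the knockouts. In whole muscle, fewer cells of a type and less RNA per cell cannot be told apart.

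RNA of most of this machinery was lower in muscle without DJ-1. Of the 36 genes, 24 fell and 0 rose by edgeR's quasi-likelihood test at a Benjamini-Hochberg adjusted p under 0.05, and 12 were not called. Among all 13409 genes tested, 14.9% were called: 8.23% fell and 6.67% rose. The 36 were chosen with earlier results of these data known, so the shares beside them are description only. By more than 1.5-fold, 17 of the 36 fell, against 5.32% of all genes tested. The median log2 fold change was -0.58 over the 36 genes and 0.0058 over all genes tested. Every knockout library lay below every control library for 26 of the 36 genes, where 14.8% of all genes tested did so. For 1 gene, Acacb, every knockout lay above every control, against 14.0% of all genes tested. Counted without 1 library at a time, between 19 and 24 of the 36 fell. Calls in the whole table also changed with the library left out. They numbered 1998 with every library and 830, 1040 and 793 without control 1, 2 and 3. Without knockout 1 to 4 they numbered 1725, 2057, 952 and 1253. Falls made up 55.2% of all calls in the table with TMM scaling and 66.8% with upper quartile scaling, while the count among the 36 was 24 under both.

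The 36 genes together took 5089, 5592 and 5234 CPM in control 1 to 3 and 3448, 3923, 3369 and 3646 CPM in knockout 1 to 4. That is 0.530% of the scaled counts in the controls and 0.360% in the knockouts on average. By route, all 3 electron transfer genes and all 3 ketone genes fell, as did 4 of 6 carnitine genes, 4 of 5 first dehydrogenases and 5 of 6 genes of the later steps. The peroxisomal enzymes had 1 fall among 4 genes, the thioesterases 1 among 3, and the genes that set malonyl-CoA 0 among 2. Differences between routes were not tested over these counts.

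**Figure D1:**
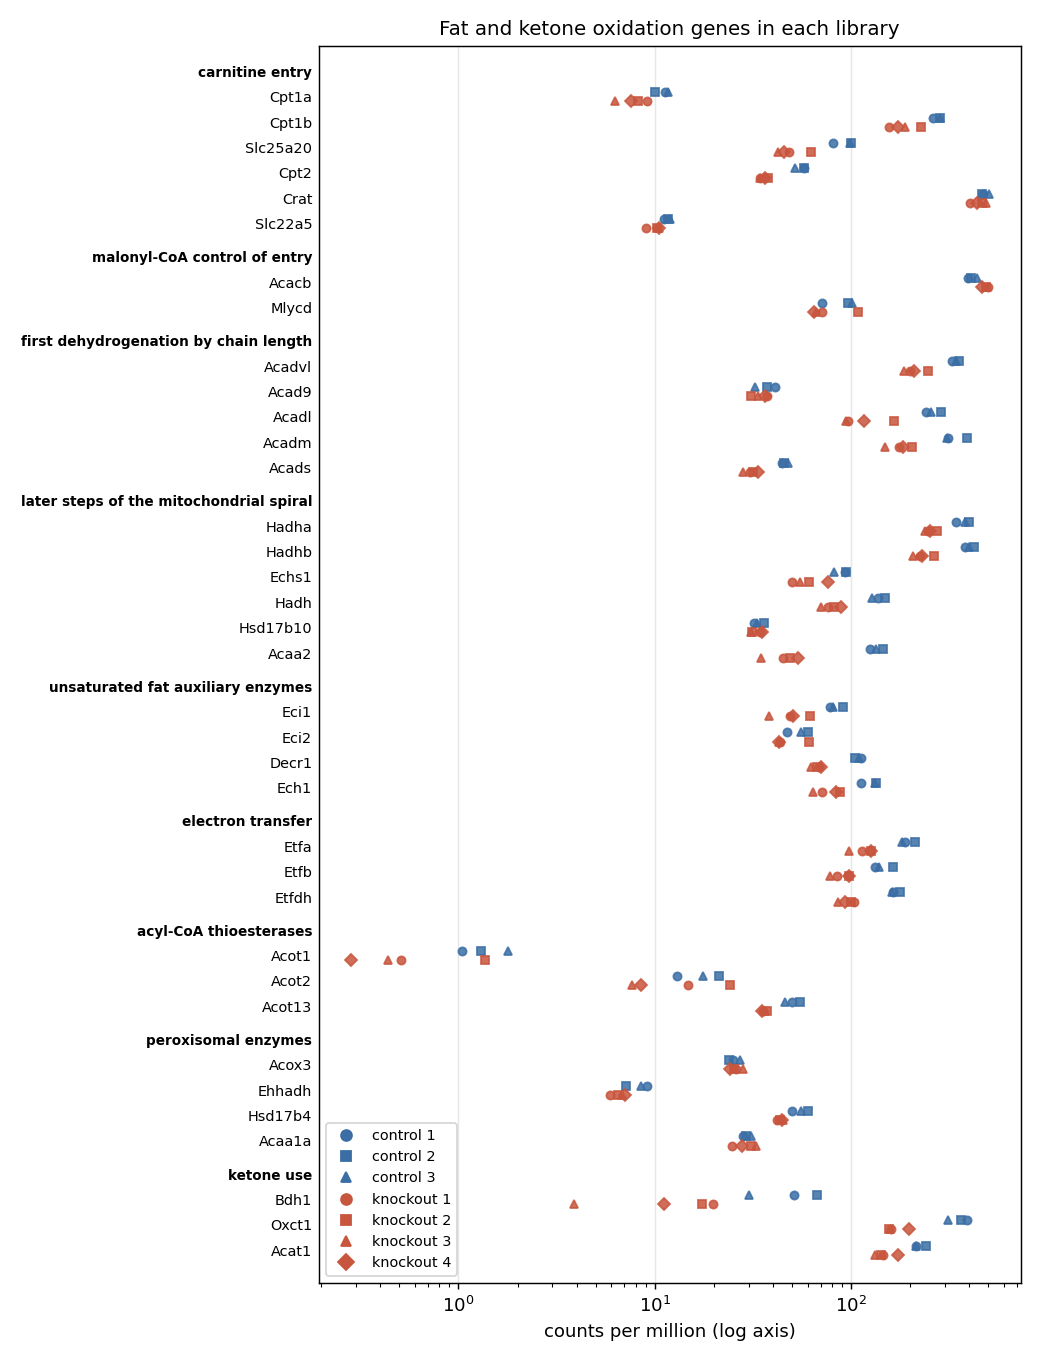
Level of each of the 36 genes in every library, in CPM on a log axis, grouped by role; blue marks are the 3 controls, red marks the 4 knockouts, and the shape gives the library number. The red marks lie wholly left of the blue marks for 26 genes and wholly right of them for Acacb.

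The carnitine route moves long chains into the mitochondrion. Cpt1b, the muscle form of the outer membrane transferase that commits fat to oxidation, read 259.7, 282 and 282 CPM in the controls and 155, 226, 189 and 173 CPM in the knockouts. The groups did not overlap, and knockout 2 was the closest to the controls. Its log2 fold change was -0.56 ± 0.120 (SE), with an adjusted p of 0.0184. That call was lost without control 2 or control 3 (adjusted p = 0.0570 and 0.0636), with a log2 fold change of -0.54 in both. Cpt1b shares 94.8% of its exon bases with another annotated gene on the same strand, Gm44502, which was counted at 1.76 CPM or less in every library.

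Slc25a20, the carrier that exchanges acylcarnitine for carnitine across the inner membrane, read 80.9, 99.7 and 98.4 CPM in the controls and 48.1, 62.2, 42.5 and 45.2 CPM in the knockouts. The highest knockout stayed below the lowest control. The log2 fold change was -0.91 ± 0.136 (SE), with an adjusted p of 0.00652, the largest fall among the carnitine genes. Cpt2, which returns the chain to coenzyme A inside, read 51.9 to 57.8 CPM in the controls and 34.2 to 37.7 CPM in the knockouts, and fell by 0.64 ± 0.0765 log2 units (SE) with an adjusted p of 0.00309.

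Cpt1a, the form of the transferase that prevails in liver, is a minor form here. Per kilobase of exon it stood at 2.54 ± 0.191 CPM in the controls (SD, n = 3), against 94.9 ± 4.49 for Cpt1b. Its level read 11.2, 10.04 and 11.6 CPM in the controls and 9.14, 8.18, 6.25 and 7.54 CPM in the knockouts, without overlap. The fall of Cpt1a, -0.49 in log2 units, had an adjusted p of 0.0442. That call was lost without any library except knockout 1 (adjusted p = 0.0523 to 0.138), and without a filter on low counts (0.0545). The share of Cpt1a in the sum of both forms, per kilobase, was 2.61% ± 0.251 (SD, n = 3) in the controls and 2.79% ± 0.726 (SD, n = 4) in the knockouts. The log2 ratio of the Cpt1a to the Cpt1b count differed between the groups by 0.071 (2-sided exact permutation p = 0.8, the same after adjustment over 6 ratios).

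The other carnitine genes were not called. Crat, which buffers acetyl-CoA as acetylcarnitine, is the most abundant of these 6 per kilobase, at 105 ± 4.37 CPM in the controls (SD, n = 3). It read 463 to 501 CPM in the controls and 402 to 485 CPM in the knockouts, with overlap (log2 fold change -0.096, 95% confidence interval -0.291 to 0.099). Slc22a5, the carnitine importer of the cell surface, read 11.1 to 11.9 CPM in the controls and 9.00 to 10.6 CPM in the knockouts. These groups did not overlap, but the change of -0.20 did not pass (adjusted p = 0.201).

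Entry of fat is braked by malonyl-CoA, which blocks the outer transferase. Acacb, which makes malonyl-CoA beside the mitochondrion in muscle, read 394, 407 and 439 CPM in the controls and 497, 485, 490.3 and 465 CPM in the knockouts. Every knockout lay above every control. The log2 fold change of 0.23 (SE 0.0742) did not pass with edgeR (adjusted p = 0.0691) and did with DESeq2 (0.0233). Mlycd, which breaks malonyl-CoA down, read 71.0, 96.7 and 101 CPM in the controls and 70.7, 109, 66.0 and 64.5 CPM in the knockouts. Knockout 2 alone exceeded the controls, and no change was called (log2 fold change -0.21, adjusted p = 0.501). The log2 ratio of the Mlycd to the Acacb count was -2.22 ± 0.219 (SD, n = 3) in the controls and -2.68 ± 0.349 (SD, n = 4) in the knockouts. This difference did not pass (exact permutation p = 0.0857, adjusted p = 0.171 over 6 ratios, smallest possible p 0.0286).

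The acyl-CoA dehydrogenases open each turn of the spiral and differ in the chain lengths they accept. Of the 5 listed, Acadvl, Acadl, Acadm and Acads fell and Acad9 was not called. Acadl, which takes long chains, read 242, 285 and 255 CPM in the controls and 96.8, 165, 94.6 and 116 CPM in the knockouts. The knockouts kept 45.3% of the control level, and knockout 2 was again the highest. Its log2 fold change was -1.14 ± 0.181 (SE), with an adjusted p of 0.00733.

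Acadm, the medium-chain enzyme whose loss causes a common human defect of fat oxidation, read 311, 387 and 306 CPM in the controls and 176, 203, 149 and 183 CPM in the knockouts. The knockouts kept 53.1% of the control level, with a log2 fold change of -0.91 ± 0.122 (SE) and an adjusted p of 0.00452. Acadvl, the membrane-bound enzyme for very long chains, went from 341 ± 14.2 (SD, n = 3) to 210.0 ± 25.9 CPM (SD, n = 4), a change of -0.70 ± 0.100 log2 units (SE) with an adjusted p of 0.00590. Part of its exon sequence, 45.02%, is also annotated on the opposite strand to Dvl2, which was counted at 3.22 to 6.05 CPM. Acads, the short-chain enzyme, went from 46.0 ± 1.42 (SD, n = 3) to 30.9 ± 2.30 CPM (SD, n = 4), a change of -0.57 ± 0.0818 log2 units (SE) with an adjusted p of 0.00581. By point estimate the fall was larger for the long and medium chain enzymes than at either end.

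Whether long and short chain enzymes fell by different amounts was asked with the ratio of Acadl to Acads counts, which needs no library scaling. The log2 ratio was 2.44, 2.64 and 2.42 in the controls and 1.66, 2.38, 1.76 and 1.80 in the knockouts. Every knockout lay below every control, with a difference of -0.60. It did not pass (exact permutation p = 0.0571, adjusted p = 0.171 over 6 ratios). Acad9 resembles Acadvl in sequence and also serves in the assembly of complex I of the respiratory chain. It read 32.5 to 41.0 CPM in the controls and 30.9 to 37.3 CPM in the knockouts, with overlap (log2 fold change -0.098, 95% confidence interval -0.331 to 0.136).

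The later steps of the spiral are run on long chains by the trifunctional protein, whose alpha and beta subunits are Hadha and Hadhb. Hadha read 342, 398 and 382 CPM in the controls and 246, 272, 237 and 252 CPM in the knockouts. Hadhb read 378, 423 and 398 CPM in the controls and 224, 263, 207 and 229.8 CPM in the knockouts. Both subunits fell without overlap between the groups, Hadha by 0.57 ± 0.0827 and Hadhb by 0.79 ± 0.0932 log2 units (SE). The adjusted p was 0.00598 for Hadha and 0.00306 for Hadhb. In both, knockout 3 was the lowest library and knockout 2 the highest knockout.

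These neighbouring genes start back to back on chromosome 5. In GENCODE M21 (build GRCm38), Hadha runs on the minus strand from 30118304 to 30155162 and Hadhb on the plus strand from 30155248 to 30184593. Only 85 bases separate the annotated starts, shown here from RefSeq (GRCm38.p6, chr5:30155163-30155247, plus strand) because the 2 genes fell together. No base is in capitals, since neither motif searched for below occurs in it.
Hadha-Hadhb: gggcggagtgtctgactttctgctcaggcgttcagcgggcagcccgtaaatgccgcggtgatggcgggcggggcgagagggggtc

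Shorter chains are handled by soluble enzymes of the matrix. Acaa2, the thiolase that releases acetyl-CoA, read 125, 145 and 133 CPM in the controls and 44.9, 48.9, 34.9 and 53.4 CPM in the knockouts. The knockouts kept 33.8% of the control level. Its log2 fold change of -1.56 ± 0.134 (SE) had an adjusted p of 0.00131, the smallest of the 36 genes, and ran from -1.65 to -1.46 with 1 library left out. Acaa2 lies on chromosome 18, plus strand, from 74779197 to 74806208. Hadh, the dehydrogenase of the third step for medium and short chains, read 127 to 149 CPM in the controls and 70.4 to 88.5 CPM in the knockouts, a change of -0.80 ± 0.0949 log2 units (SE) with an adjusted p of 0.00311. The Hadha to Hadh ratio differed by 0.23 on the log2 scale, which did not pass (exact permutation p = 0.0857, adjusted p = 0.171 over 6 ratios).

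Echs1, the short-chain hydratase, read 92.6, 93.7 and 81.4 CPM in the controls and 49.7, 60.8, 54.7 and 76.0 CPM in the knockouts. Knockout 4 came close to control 3, although the groups did not overlap. Its fall of 0.57 on the log2 scale (adjusted p = 0.0278) was not called without control 1, 2 or 3 or knockout 3 (adjusted p = 0.0565 to 0.0872). Hsd17b10, which acts on branched chains and is also a subunit of mitochondrial ribonuclease P, read 31.9 to 36.1 CPM in the controls and 30.9 to 35.3 CPM in the knockouts. The groups overlapped throughout (log2 fold change -0.033, 95% confidence interval -0.227 to 0.161). The spiral thus had 9 falls among the 11 dehydrogenases and later enzymes, with Acad9 and Hsd17b10 as those not called.

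**Figure D2:**
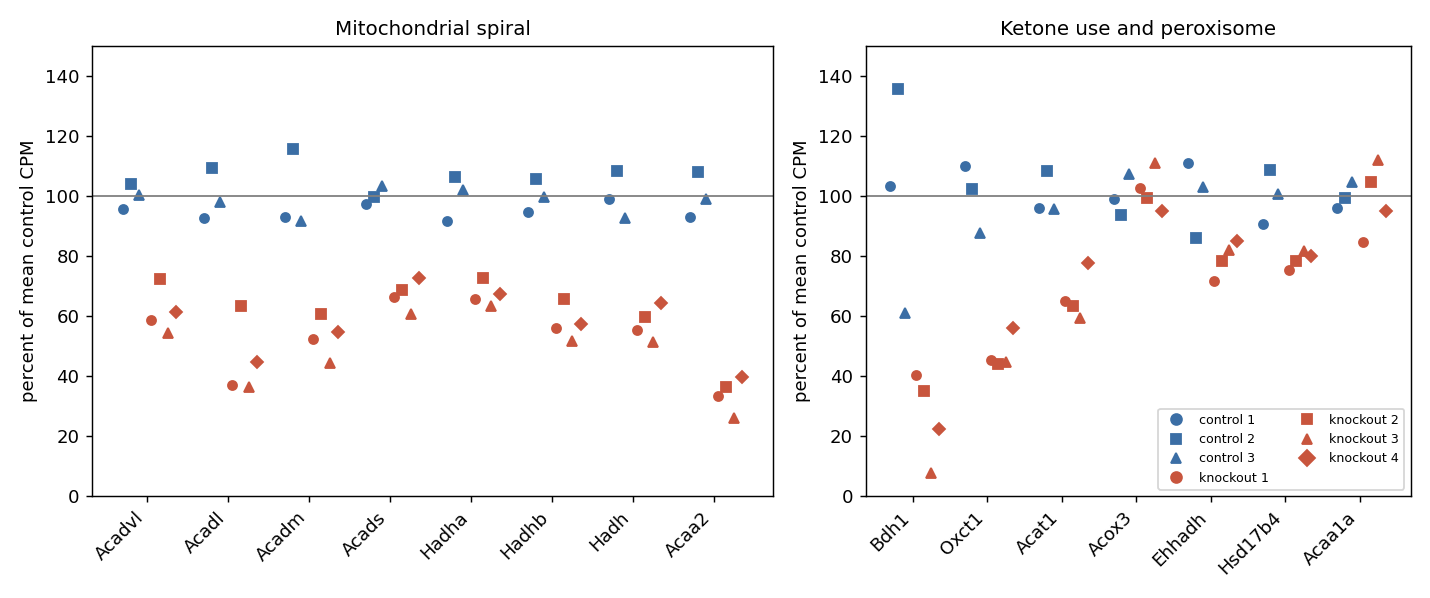
Level in each library as a percentage of the mean control level (grey line at 100%) for 8 enzymes of the mitochondrial spiral (left) and for ketone and peroxisomal enzymes (right); blue marks are controls and red marks knockouts. Acaa2 and Bdh1 sit lowest, at 33.8% and 26.4% of control on average, while the knockout marks of Acox3 and Acaa1a fall on both sides of the line.

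Unsaturated fats need auxiliary enzymes that move or remove double bonds. Decr1, the dienoyl-CoA reductase, read 104 to 112 CPM in the controls and 62.3 to 70.5 CPM in the knockouts, and fell by 0.69 ± 0.0718 log2 units (SE) with an adjusted p of 0.00239. Eci1, the mitochondrial enoyl-CoA isomerase, went from 83.2 ± 6.96 (SD, n = 3) to 49.8 ± 9.60 CPM (SD, n = 4), with an adjusted p of 0.0133 by edgeR. Ech1, a dienoyl-CoA isomerase found in mitochondria and peroxisomes, went from 126 ± 12.3 (SD, n = 3) to 76.6 ± 10.95 CPM (SD, n = 4), with an adjusted p of 0.00848 by edgeR. Eci2, an isomerase that also works in peroxisomes, was the member not called. It read 47.0, 59.9 and 55.3 CPM in the controls and 43.2, 60.7, 42.7 and 42.8 CPM in the knockouts, where knockout 2 lay above every control and the other knockouts below every control (log2 fold change -0.19, adjusted p = 0.397).

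Electrons from the acyl-CoA dehydrogenases leave through the flavoprotein made of Etfa and Etfb and through Etfdh, which passes them to ubiquinone. All 3 genes fell by similar point estimates. Etfdh read 163, 178 and 161 CPM in the controls and 103, 99.2, 85.2 and 93.3 CPM in the knockouts, a change of -0.81 ± 0.0848 log2 units (SE) with an adjusted p of 0.00239. Etfa read 188, 212 and 182 CPM in the controls and 113, 126, 98.0 and 126 CPM in the knockouts, a change of -0.74 ± 0.104 log2 units (SE) with an adjusted p of 0.00519. Etfb read 133, 163 and 138 CPM in the controls and 84.97, 97.9, 78.1 and 97.3 CPM in the knockouts, a change of -0.69 ± 0.108 log2 units (SE) with an adjusted p of 0.00689. In each of the 3, the groups did not overlap and knockout 3 was the lowest library. Etfb shares 69.1% of its exon bases with an annotated transcript on the same strand, Gm45233, which was not analysed here.

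Promoters of these genes were searched for letters bound by the nuclear receptors that regulate fat oxidation. RefSeq promoters (250 bases before to 50 after the start, GRCm38.p6) were matched for 28 of the 36 genes, as 29 promoters. The direct repeat that PPAR and other receptors bind, AGGTCA followed by any 1 base and AGGTCA again, was searched on both strands with up to 2 mismatches. It was found in 3 of the 29 promoters (10.3%), against 3.86% of all 32851 promoters. The estrogen-related receptor element TCAAGGTCA, exact and on both strands, was found in 0 of 29, against 0.423% of all promoters. It can overlap the direct repeat by the letters AGGTCA. A match is only a match of letters, and the list is too short to read the shares against each other.

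The 3 matches are shown with the repeat in capitals and each sequence 5′ to 3′ on the strand of its gene. Their genes were among the 24 of the 36 that fell, and a link between repeat and fall was not tested. The Etfa stretch is chr9:55512294-55512353 on the minus strand, with the repeat 77 to 65 bases before the start and facing the other way. The Echs1 stretch is chr7:140116477-140116536 on the minus strand, with the repeat 83 to 71 bases before the start. The Slc25a20 match is chr9:108662142-108662154 on the plus strand, from base 6 to base 18 after the start base.
Etfa: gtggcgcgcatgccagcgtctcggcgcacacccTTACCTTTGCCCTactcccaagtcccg
Echs1: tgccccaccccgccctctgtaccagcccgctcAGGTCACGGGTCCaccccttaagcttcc
Slc25a20: AGGTGAAAGGTCG

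**Figure D3:**
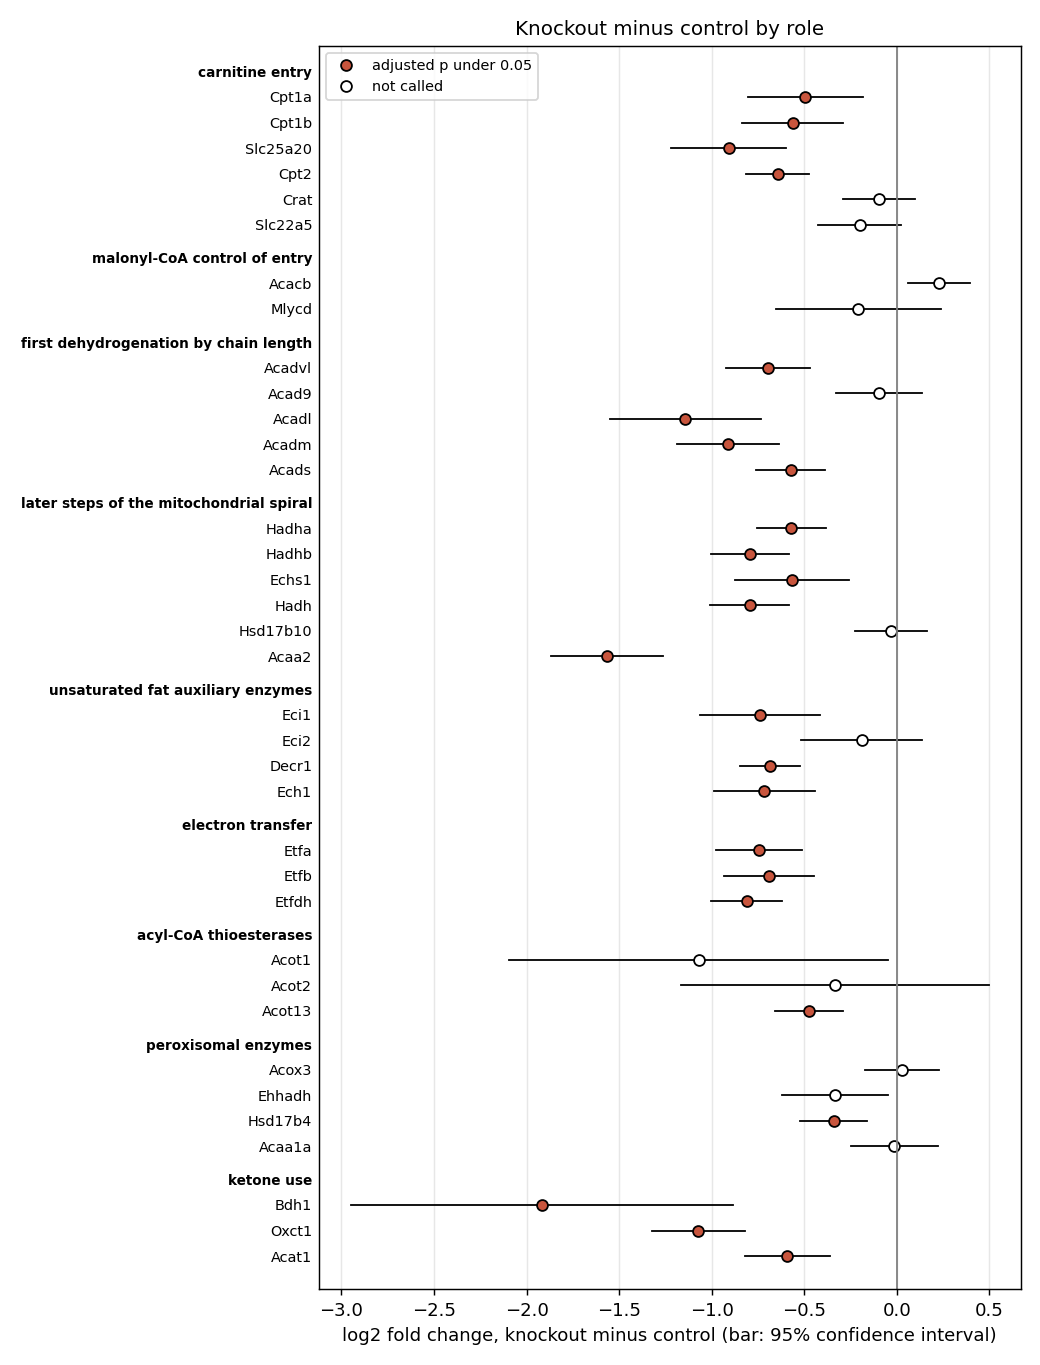
Log2 fold change of each of the 36 genes, knockout minus control, with its 95% confidence interval as a bar, grouped by role; filled points passed an adjusted p of 0.05. The 24 filled points all lie left of 0, and the intervals of the peroxisomal Acox3 and Acaa1a span 0.

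All 3 genes of ketone use fell, and they had the lowest median of any role, -1.07 in log2 units. Bdh1, which oxidizes beta-hydroxybutyrate to acetoacetate, read 51.1, 67.0 and 30.1 CPM in the controls and 19.8, 17.4, 3.86 and 11.1 CPM in the knockouts. The libraries of both groups were far apart, though the groups did not overlap. The log2 fold change was -1.92 (SE 0.458, 95% confidence interval -2.95 to -0.88, adjusted p = 0.0270), the lowest of the 36. The call was lost without control 1, control 2 or knockout 4 (adjusted p = 0.0712, 0.0816 and 0.0670). An annotated gene that shares exon bases with Bdh1, Gm15743, stood at 1.46 CPM or less in every library.

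Oxct1, the transferase that activates acetoacetate and the step that liver lacks, read 389, 362 and 310.1 CPM in the controls and 160.3, 156, 158 and 198 CPM in the knockouts. The knockouts kept 47.5% of the control level, and 3 of them lay within a few CPM of each other. Its log2 fold change was -1.07 ± 0.111 (SE), with an adjusted p of 0.00239. Acat1, the mitochondrial thiolase that splits acetoacetyl-CoA, went from 223 ± 16.4 (SD, n = 3) to 148 ± 17.7 CPM (SD, n = 4), a change of -0.59 ± 0.102 log2 units (SE) with an adjusted p of 0.00920. The Oxct1 to Bdh1 ratio was 2.91 ± 0.467 (SD, n = 3) in the controls and 3.92 ± 1.08 (SD, n = 4) in the knockouts on the log2 scale, and this difference did not pass (exact permutation p = 0.229, adjusted p = 0.274 over 6 ratios). Without knockout 3 it was 0.53 in place of 1.01.

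Peroxisomal enzymes shorten very long and branched chains and give hydrogen peroxide in their first step. Hsd17b4, the bifunctional protein for branched and very long chains, read 50.2, 60.03 and 55.6 CPM in the controls and 41.7, 43.3, 45.1 and 44.3 CPM in the knockouts. It fell by 0.34 ± 0.0812 log2 units (SE) without overlap, with an adjusted p of 0.0262. The call was lost without control 2, control 3, knockout 3 or knockout 4 (adjusted p = 0.0553 to 0.0873). Ehhadh, the other bifunctional protein, read 9.17, 7.09 and 8.50 CPM in the controls and 5.91, 6.47, 6.77 and 7.01 CPM in the knockouts. Its groups just failed to overlap, and the change of -0.34 (SE 0.126) did not pass (adjusted p = 0.107).

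Acox3, an oxidase of branched chains, read 25.1, 23.8 and 27.2 CPM in the controls and 26.05, 25.2, 28.2 and 24.1 CPM in the knockouts. Acaa1a, the peroxisomal thiolase, read 28.2, 29.2 and 30.7 CPM in the controls and 24.9, 30.8, 32.9 and 27.9 CPM in the knockouts. The groups of both overlapped, with 95% confidence intervals of the log2 fold change of -0.172 to 0.227 and -0.250 to 0.225. A 1.5-fold change in either direction lies outside both intervals. Whether a peroxisomal and a mitochondrial enzyme changed by different amounts was tested for the Ehhadh to Hadha ratio only, which differed by 0.24 on the log2 scale (exact permutation p = 0.2, adjusted p = 0.274 over 6 ratios).

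Thioesterases release free fatty acids from coenzyme A. Acot13, which acts on long chains at mitochondria, read 49.9, 55.1 and 45.9 CPM in the controls and 35.7, 37.4, 36.4 and 35.02 CPM in the knockouts, and fell by 0.48 ± 0.0817 log2 units (SE) with an adjusted p of 0.00906. Acot2, of the mitochondrial matrix, read 12.99, 21.3 and 17.7 CPM in the controls and 14.8, 24.05, 7.61 and 8.50 CPM in the knockouts. Acot1, its cytosolic copy, read 1.05 to 1.78 CPM in the controls and 0.282 to 1.37 CPM in the knockouts. Knockout 2 was the highest knockout in both. Neither was called (adjusted p = 0.568 and 0.142), but Acot1 was without knockout 2, with a log2 fold change of -1.73 in place of -1.07 (adjusted p = 0.0145). These 2 genes lie side by side on chromosome 12, are close copies and have counts that are not whole in every library, so the split between them is uncertain.

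Counts that were not whole are the sign of reads shared between similar or overlapping genes. They also marked Cpt1b, Slc22a5, Acaa1a, Bdh1 and Oxct1 in 6 or 7 libraries. The remaining 29 genes had whole counts in every library. Oxct1 shares 13.2% of its exon bases with BC037032 on the opposite strand. That gene was counted at 1.5 CPM or less in every library and also fell (adjusted p = 0.0135 by edgeR). Acaa1b, the near copy of Acaa1a, was at 0.161 CPM or less throughout.

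The related genes of the same routes, 34 by name, were listed apart from these 36. Of them 33 were matched in the table and 27 were tested. Of these 8 fell and 2 rose, where 8.23% and 6.67% of all genes tested did so. The falls numbered 5 without any 1 control or knockout 3. Phyh, which starts the removal of branched phytanic acid in peroxisomes, fell from 153 ± 17.2 (SD, n = 3) to 79.1 ± 9.54 CPM (SD, n = 4), or by 0.96 log2 units (adjusted p = 0.00311). Aldh9a1, an enzyme of carnitine synthesis, fell by 1.22 log2 units (adjusted p = 0.00953). Acot7, a cytosolic thioesterase, fell by 0.77, and Abcd3, a peroxisomal importer of acyl-CoA, by 0.41 (adjusted p = 0.00903 and 0.0133).

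The 2 rises are too few to read against the 6.67% of all genes tested that rose. Acaca, the cytosolic enzyme that makes malonyl-CoA for fat synthesis, rose from 22.6 ± 6.58 (SD, n = 3) to 51.5 ± 11.5 CPM (SD, n = 4), a change of 1.19 ± 0.227 log2 units (SE) with an adjusted p of 0.0128. That call was lost without control 3 (adjusted p = 0.0509). Crot, which hands medium chains from peroxisomes to carnitine, rose by 0.37 (adjusted p = 0.0311), a call lost without any library except knockout 2 (adjusted p = 0.0549 to 0.109).

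The knockouts differed among themselves. Knockout 3 was the lowest knockout for 22 of the 36 genes and knockout 2 the highest for 17. Among the controls, control 2 was the highest for 22 genes. Markers of slow fibres also moved with the group: all 8 listed were tested, 3 fell and 0 rose. Of all genes tested, 8.23% fell and 6.67% rose. In each of the 8 markers every knockout lay below every control, where 14.8% of all genes tested did so. Their log2 fold changes ran from -2.52 to -1.84. Their summed level was 1299 to 1532 CPM in the controls and 473, 74.4, 26.7 and 529.6 CPM in knockout 1 to 4. The slow myosin Myh7 stood at 9.29 and 5.78 CPM in knockout 2 and 3, and was not called (adjusted p = 0.165 by edgeR). Of the 6 fast fibre markers 2 fell and 3 rose. Those that fell were Myh1 and Myh2, the myosins of the more oxidative fast fibres. Myh1 read 9793 to 10572 CPM in the controls and 2714, 5624, 1676 and 4903 CPM in knockout 1 to 4, and Myh2 read 4708 to 6810 and 1167, 1595, 124 and 1696 CPM. Knockout 3 was the lowest in both. Knockout 2 was the highest knockout in Myh1 but lay below knockout 1 and 4 in the slow marker sum. Myh4, the myosin of the fastest fibres, rose from 40535 to 57140 CPM in the controls to 73365 to 129514 CPM in the knockouts. It dominates the sum of the 6, which was 77747 to 98996 CPM in the controls and 106408 to 169140.4 CPM in the knockouts. The part of fibre type in the lower fat and ketone genes was not tested.

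**Figure D4:**
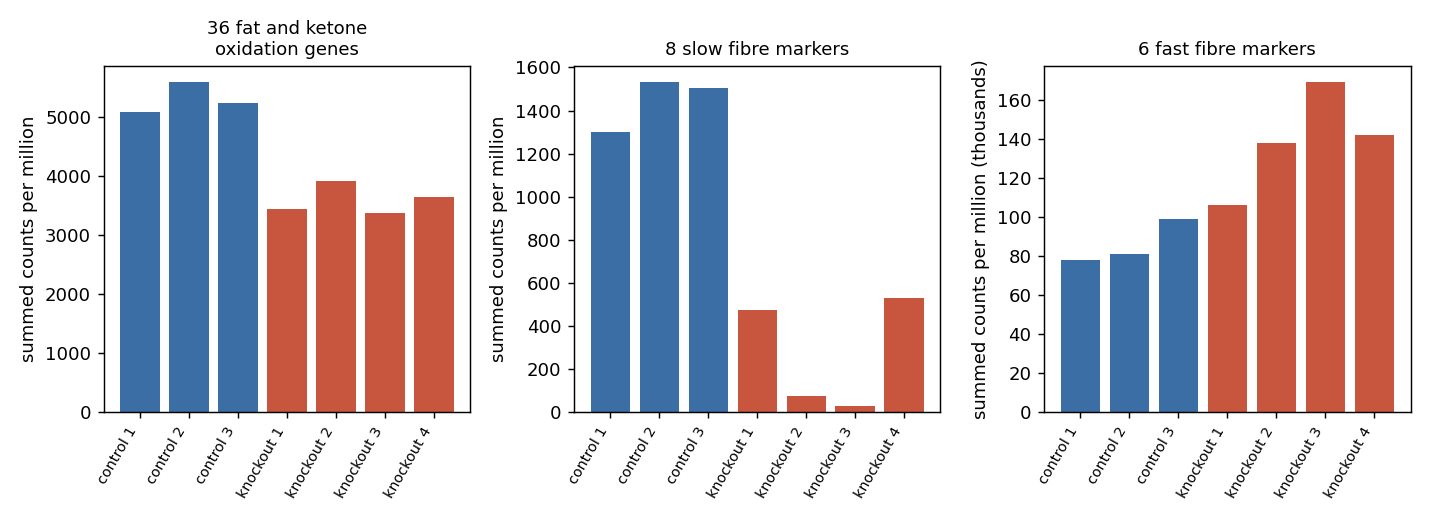
Summed CPM in each library of the 36 fat and ketone oxidation genes (left), of 8 slow fibre markers (middle) and of 6 fast fibre markers (right); blue bars are controls and red bars knockouts, and all axes start at 0. The left and middle bars of all knockouts lie below those of all controls and the right bars above, where Myh4 makes up most of the sum while Myh1 and Myh2 fell.

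Other cells of the muscle also carry some of this RNA, and the sums of their markers were lower in the knockouts or overlapped. The 7 white adipocyte markers summed to 152 to 195 CPM in the controls and 91.1 to 146 CPM in the knockouts (2 of 6 tested fell). Most of that sum was Fabp4, at 117 to 139 CPM in the controls and 77.4 to 114 CPM in the knockouts. Fabp4 and Retn were the 2 that fell. Adipoq, Plin1, Cidec and Lep overlapped between the groups, and Cfd did not overlap but was not called. The 4 macrophage markers summed to 20.5 to 21.5 CPM and 9.35 to 14.1 CPM (2 of 4 fell), and the 4 endothelial markers to 183 to 219 CPM and 151 to 161 CPM (1 of 4 fell). The macrophage markers Adgre1 and Mrc1 overlapped between the groups and were not called. The 4 fibroblast markers summed to 245 to 514 CPM and 181 to 273 CPM (2 of 4 fell), and the 3 erythroid markers to 157 to 584 CPM and 76.1 to 166 CPM (2 of 3 fell). Col1a1 and Col3a1 were the fibroblast markers that fell, though their groups overlapped. Col1a1 read 27.9, 18.2 and 98.1 CPM in control 1 to 3, and Col3a1 read 79.1, 45.3 and 204 CPM. Dcn and Pdgfra overlapped and were not called. Of the brown adipocyte markers, Ucp1 had 0 counts in 6 libraries and 1 count in knockout 3, and Cidea stood at 0.925 CPM or less. Of all genes tested, 8.23% fell and 6.67% rose, and marker lists this short cannot be read against those shares. The part of these cells in the lower fat and ketone genes was not tested.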

How the data were processed

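RNA-seq of 7 gastrocnemius libraries was analysed from 1 table. It holds expected counts per gene that the authors deposited, made with STAR 2.7.10a and RSEM 1.2.28 on mm10 per the labels and the submitters' processing notes, which also name DESeq2 1.3.40. The transcript annotation and the strand setting of the counting are not stated in the sources used here. The counts were rounded and tested in R 4.3.3 with edgeR 4.0.16 (filterByExpr, TMM, quasi-likelihood F test, no robust prior), over 13409 genes, with Benjamini-Hochberg adjustment over all of them. The method was tested on simulated data. Standard errors were derived from the fold change and its F statistic. The 6 ratios used log2 of the count plus 0.5 and a 2-sided exact permutation test over 35 splits. Intervals cover the fit only. Levels per kilobase use the union of exons in GENCODE M21. The named genes are all 36 members and, of the related genes, up to 4 called in each direction with the smallest p. The members and lists were chosen with earlier results of these data known. Alternatives were other scalings and filters, DESeq2 1.42.0, a term for replicate number and leaving out each library.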

Additional observations from a re-analysis of the deposited data

Results flagged for a closer look

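In 3 of the 36 genes, 1 knockout library stood apart from the other knockouts by Dixon's test, which flags about 1 group in 20 by chance. Mlycd read 109 CPM in knockout 2 against 64.5 to 70.7 CPM in the other knockouts. Eci2 read 60.7 CPM in knockout 2 against 42.7 to 43.2 CPM. Oxct1 read 198 CPM in knockout 4 against 156 to 160.3 CPM. Only the knockouts were examined in this way, since the controls number 3.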

How the results depend on the processing

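Of the 24 genes that fell, 19 were called under all 13 alternatives and 24 kept their direction in all 13. The number that fell was 23 without a filter, 22 with a term for the replicate number (replicate block) and 19 to 24 with 1 library left out. The labels do not say whether the replicate numbers pair the samples. Same-numbered libraries correlated weakly, at 0.094, 0.134 and 0.085 in their deviations from group means. Each control correlated best with the knockout of its number, so whether they are paired was not settled. Knockout 4 has no partner, so the block drops it. The block moved all calls in the table from 1998 to 1273 and left Cpt1a (adjusted p = 0.110) and Hsd17b4 (0.0582) not called. DESeq2 called 1 gene higher, Acacb, where edgeR called 0; 1 of the genes not called with a positive change had an unadjusted p under 0.05. Among related genes 1 rose with the block, and with 1 library left out 5 to 8 fell and 0 to 2 rose. The sign of Acox3 turned with upper quartile scaling (-0.023) and ran from -0.016 to 0.082 with 1 library left out. Under the same leave-outs Acaa1a ran from -0.077 to 0.052, Hsd17b10 from -0.077 to 0.021 and the Cpt1a to Cpt1b ratio from -0.093 to 0.183. A ratio test with 1 library left out cannot pass 0.05.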
